A study of Mus musculus with 48 samples.

Results

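Vasopressin or oxytocin high neurons of the embryonic mouse hypothalamus were taken as the cells that held at least 3 unique molecular identifiers (UMIs, each standing for 1 captured transcript) summed over *Avp* and *Oxt*, and at least 1 UMI of at least 3 of the 6 neuronal genes *Stmn2*, *Tubb3*, *Snap25*, *Syt1*, *Elavl4* and *Rbfox3*. The rule found 110 cells, here called peptide-high neurons, among 14121 cells and among the 11122 cells that met the neuronal criterion. Of these, 76 were control cells and 34 were *Eed-cKO* cells. *Avp*, *Oxt* and the 6 neuronal genes chose the cells, so their levels are given as a description and were not tested.

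The study profiled single cells of the embryonic hypothalamus at E18.5 with 3′ tag counting in droplets. Control embryos were *Eed* fl/fl, with both *Eed* alleles flanked by loxP sites and no Cre, and *Eed-cKO* embryos were *Eed* fl/fl; *Sox1-Cre*/+. *Sox1-Cre* is an insertion in the *Sox1* locus that deletes throughout the central nervous system from early stages, so nothing in the design is particular to neuropeptide neurons, and cells of vascular, meningeal or immune origin are not targeted. There were 22 libraries from 6 control embryos (2 female and 4 male) of 4 litters. A further 26 libraries came from 9 *Eed-cKO* embryos (5 female and 4 male) of 6 litters. All were on a mixed strain background. No litter held both genotypes, so litter and genotype cannot be told apart, and the embryo was the replicate in every test, apart from an alternative that took each library as a sample.

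*Avp* and *Oxt* encode the neurohypophyseal peptides vasopressin, which controls water balance and vascular tone, and oxytocin, which acts in parturition, lactation and social behaviour. Magnocellular neurons of the paraventricular and supraoptic nuclei make either peptide and send it to the posterior pituitary, and a separate set of *Avp* neurons lies in the suprachiasmatic nucleus, the circadian pacemaker. The paraventricular and supraoptic lineage depends on the transcription factors Otp, Sim1, Arnt2 and Pou3f2. Eed is a core subunit of the polycomb repressive complex 2 (PRC2), which places the repressive histone mark H3K27me3.

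The 2 peptide genes lie next to each other on mouse chromosome 2 and face each other, *Oxt* at chr2:130576173-130577054 on the plus strand and *Avp* at chr2:130580620-130582554 on the minus strand (GRCm38, GENCODE annotation). The 250 bases before each transcript start, from RefSeq (GRCm38.p6), are shown because these promoters carry the regulatory elements through which both genes are selectively expressed. Capitals mark the E-box CACGTG, bound by the circadian CLOCK complex, the nuclear receptor half-site TGACC, and the TATA-like element CATAAA, each searched on both strands with no overlap among the marked matches.
*Avp* promoter, chr2:130582589-130582838, minus strand: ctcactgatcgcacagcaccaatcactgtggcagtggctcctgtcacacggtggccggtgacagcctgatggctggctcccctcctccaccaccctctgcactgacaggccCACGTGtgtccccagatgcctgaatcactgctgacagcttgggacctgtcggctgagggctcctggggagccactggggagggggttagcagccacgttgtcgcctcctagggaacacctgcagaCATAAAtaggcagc
*Oxt* promoter, chr2:130575919-130576168, plus strand: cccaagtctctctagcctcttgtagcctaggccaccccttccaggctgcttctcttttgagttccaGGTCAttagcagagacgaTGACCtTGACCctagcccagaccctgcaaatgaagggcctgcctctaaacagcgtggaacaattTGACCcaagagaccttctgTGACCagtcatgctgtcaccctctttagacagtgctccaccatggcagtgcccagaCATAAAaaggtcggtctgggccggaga

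The *Avp* window held 1 CACGTG, 139 to 134 bases before the start, and the *Oxt* window held 5 TGACC matches, of which 1 was on the minus strand and reads as GGTCA. Among 32851 mouse promoter windows of this length, CACGTG was found in 6.02%, TGACC in 35.2% and CATAAA in 10.8%, and 5 or more TGACC matches were found in 14 windows (0.0426%). The matches describe the letters of these windows and were not tied to the counts below.

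Depth bears on every share of cells that follows. Totals per embryo ran from 658175 UMIs (*Eed-cKO* embryo 2) to 7487417 UMIs (control embryo 6), and the largest control library held 1207 cells, against 465 for the largest *Eed-cKO* library. Peptide-high neurons were deeper than other neurons. The median control cell of this kind held 7895.5 UMIs and the median other control neuron 5192.5, and the *Eed-cKO* medians were 7961.5 and 4831. Among the peptide-high neurons, 14 were doublet candidates and 2 carried a barcode that also occurred in another library.

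Most neurons held no *Avp* or *Oxt* UMI, a few held 1 or 2, and a small set held far more. In control, 5529 neurons had none, 265 had 1, 28 had 2, 12 had 3 to 9, 25 had 10 to 99 and 39 had 100 or more. In *Eed-cKO* the same classes held 5045, 122, 23, 8, 13 and 13 neurons. The background from free RNA was read in 682 non-neural cells, which should lack both genes. Of these, 17 had a UMI (2.49%; 3.95% in control and 1.63% in *Eed-cKO*), at a median depth of 3660.5 UMIs, and 0 reached 3 UMIs, which allows a share of up to 0.440%. Single UMIs were thus at a level that free RNA also gave, whereas the minimum of 3 was met in no reference cell. Just outside the rule were 51 neurons with 2 UMIs, and just inside it were 3 neurons with 3 UMIs and 3 with 4. A further 6 cells reached 3 UMIs without the neuronal genes, with 3 to 73 UMIs. Peptide-high neurons carried 98.1% of all *Avp* and *Oxt* UMIs in control and 96.4% in *Eed-cKO*.

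Peptide-high neurons made up a smaller share of neurons in *Eed-cKO* embryos. The 6 control embryos held 6, 19, 13, 9, 14 and 15 such cells, or 0.661%, 1.90%, 1.39%, 1.14%, 1.02% and 1.68% of their neurons in the order of embryos 1 to 6. The 9 *Eed-cKO* embryos held 5, 0, 1, 11, 4, 6, 5, 1 and 1, or 0.567%, 0%, 0.174%, 1.56%, 0.531%, 0.770%, 0.822%, 0.260% and 0.259%. *Eed-cKO* embryo 4 lay among the control embryos, control embryo 1 lay among the *Eed-cKO* embryos, and the groups therefore overlapped. *Eed-cKO* embryo 2 had 1 library and 151 neurons, so that its 0 allows a share of up to 1.99% (3 cells of its neurons).

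The mean share was 1.298% ± 0.453 in control and 0.550% ± 0.470 in *Eed-cKO* (SD, n = 6 and 9 embryos), a difference of −0.749 percentage points (exact permutation test over embryos, two-sided, p = 0.0132). Over the pooled neurons the shares were 1.29% (95% exact binomial interval 1.02 to 1.61) and 0.651% (0.451 to 0.908), intervals that cover counting error only. A threshold of 10 UMIs or thinning every cell to 2000 UMIs kept the difference past the threshold (−0.646 points, p = 0.00400, when thinned). At a threshold of 2 UMIs, where free RNA enters, it was −0.729 points with p = 0.109. In male embryos (4 control and 4 *Eed-cKO*) the difference was −1.16 points (exact permutation p = 0.0286). In female embryos (2 control and 5 *Eed-cKO*) it was −0.181 points (p = 0.762), with too few splits of the embryos for this test to pass. The 2 sexes were not tested against each other.

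**Figure D1:**
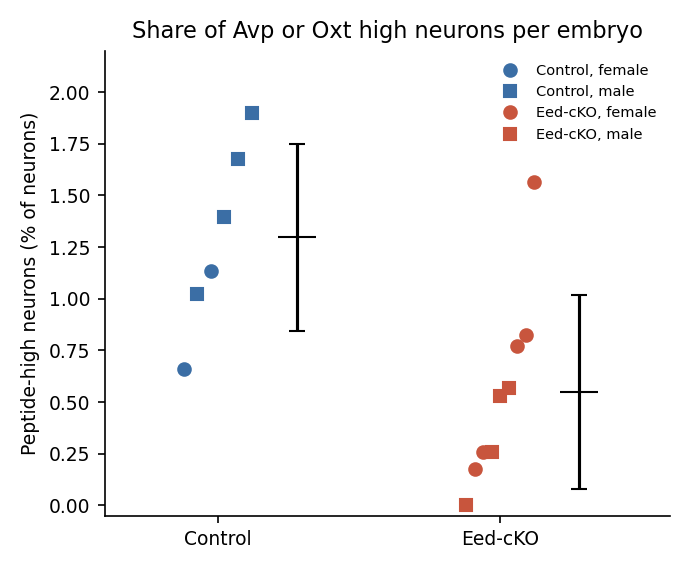
Peptide-high neurons as a percentage of the neurons of each embryo (y axis), by genotype (x axis), with 1 point per embryo (circles female, squares male) and the mean with its SD beside them. Control embryos run from 0.661% to 1.90% and *Eed-cKO* embryos from 0% to 1.56%.

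Within the peptide-high neurons, *Avp* and *Oxt* were largely carried by different cells. More *Avp* than *Oxt* UMIs were found in 62 control and 24 *Eed-cKO* cells, and the remaining 14 and 10 cells were led by *Oxt* (18.4% and 29.4%). Both peptides reached 10 UMIs in 1 control cell and in 3 *Eed-cKO* cells. These counts describe the cells by the genes that chose them.

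The highest *Avp* count was 1889 UMIs in control and 1444 in *Eed-cKO*. The highest *Oxt* count was 726 in control and 57 in *Eed-cKO*, and *Oxt* reached 100 UMIs in 5 control cells and in no *Eed-cKO* cell. The median sum of both was 104 UMIs in control and 60 in *Eed-cKO*, and at least 100 UMIs were held by 39 of 76 and 13 of 34 cells. In the cell with the largest share, *Avp* and *Oxt* took 10.9% of all transcripts. Requiring 3 *Oxt* UMIs alone gave a difference between genotypes of −0.107 points of neurons (exact permutation p = 0.243).

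**Figure D2:**
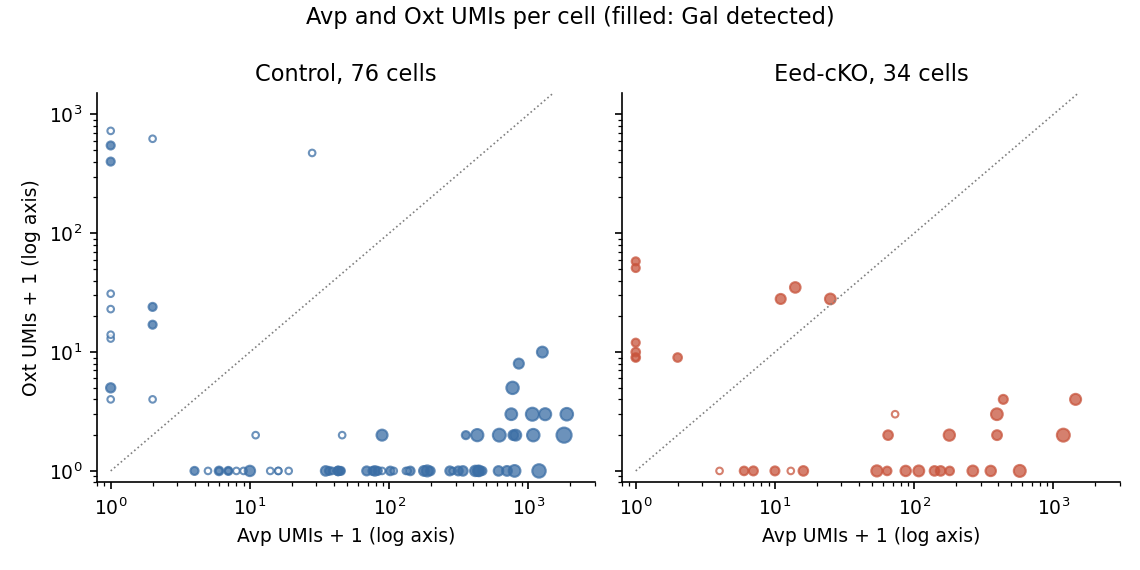
*Avp* UMIs (x axis) and *Oxt* UMIs (y axis) of each peptide-high neuron on log axes after adding 1, for control (76 cells, left) and *Eed-cKO* (34 cells, right). Filled points held *Gal*, larger points held more *Gal* UMIs, and the dotted line marks equal counts. The 5 cells with at least 100 *Oxt* UMIs lie in the control panel.

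The other named markers were checked next, *Gal*, which encodes galanin and is co-expressed with vasopressin in magnocellular neurons, and *Nos1*, the neuronal nitric oxide synthase. *Gal* was detected in 64.5% of control and 88.2% of *Eed-cKO* peptide-high neurons, against 11.6% and 14.2% of other neurons. *Nos1* was detected in 26.3% and 26.5%, against 6.75% and 7.09%. After thinning to 2000 UMIs, *Nos1* was detected in 7.84% of 51 control and 10% of 20 *Eed-cKO* peptide-high neurons. *Gal* was then detected in 49.0% and 80%. These thinned shares are not set here against thinned other neurons, so the part of depth in the *Nos1* shares was not tested. Without thinning, the shares of *Gal* and *Nos1* were higher than in other neurons in 6 of 6 control embryos. The same held in 5 of 5 *Eed-cKO* embryos with at least 3 peptide-high neurons. The exact paired permutation p was 0.0312 in control and 0.0625 in *Eed-cKO*, the smallest that 6 and 5 embryos allow, and 0.0796 for all 4 after adjustment over 14 comparisons. Among the 24 *Oxt*-led cells of both genotypes *Nos1* was found in 50%, and among the 86 *Avp*-led cells in 19.8%, while *Gal* was found in 58.3% and 75.6%. *Gal* also went with the peptide count, at 86.5% of cells with at least 100 UMIs and 58.6% of the rest.

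For tests across all genes, the UMIs of the peptide-high neurons of an embryo were summed and compared with the sum of its other neurons. Asking for 10 peptide-high neurons per embryo left 4 control embryos, all male, and 1 *Eed-cKO* embryo, which was female. A second fit asked for 3 and kept control embryos 1 to 6 and *Eed-cKO* embryos 1, 4, 5, 6 and 7. This limit was chosen after the data were seen, and its values are those given below unless stated otherwise. Adjusted p values are Benjamini-Hochberg values from the quasi-likelihood test of edgeR over all genes tested, and levels are given as CPM, UMIs scaled to the total of the same cells. SE values of log2 differences were worked back from the F statistic of that test and were not estimated separately. Where a group held only a few UMIs, such an SE can be smaller than counting error alone. In these sums fewer cells with a transcript and less of it per cell cannot be told apart.

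In control, 1227 of 12595 genes (9.74%) differed between peptide-high and other neurons, 428 higher (3.4%) and 799 lower (6.34%). In *Eed-cKO*, 716 (5.68%) differed, 188 higher (1.49%) and 528 lower (4.19%). With 10 cells asked, the counts were 905 of 12462 (7.26%) in control and 181 (1.45%) in *Eed-cKO*. The split by direction moved with the scaling, to 566 higher and 597 lower in control and 275 and 268 in *Eed-cKO* when library size alone was used. The median log2 difference over all genes was −0.16 in control and −0.30 in *Eed-cKO*, and changes are read against it.

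The lineage regulators were among the genes that set these neurons apart in both genotypes. *Sim1*, a bHLH-PAS factor required for the neurosecretory lineage, stood at 351, 277, 285, 278, 248 and 262 CPM in control embryos 1 to 6 and at 338, 235, 494, 191 and 205 CPM in *Eed-cKO* embryos 1, 4, 5, 6 and 7. Other neurons of the same embryos averaged 44.1 ± 10.8 and 51.3 ± 10.0 CPM, so that no embryo of either set overlapped the other. The log2 difference of *Sim1* was 2.57 (SE 0.212, adjusted p = 8.1e-31) in control and 2.204 (SE 0.284, adjusted p = 3.2e-12) in *Eed-cKO*. *Pou3f2*, the POU factor that acts downstream of Sim1 in this lineage, averaged 439 ± 163 CPM in control and 355 ± 174 CPM in *Eed-cKO*, against 64.2 ± 7.02 and 68.9 ± 7.71 CPM in other neurons. Its log2 difference was 2.61 in control (adjusted p = 4.1e-45) and 2.07 in *Eed-cKO* (adjusted p = 2.6e-14).

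*Arnt2*, the dimerisation partner of Sim1, was broadly present in other neurons and rose by 0.44 on the log2 scale in control (adjusted p = 0.0175), with 0.16 in *Eed-cKO* (adjusted p = 0.703). Of 4 regulators tested, 3 passed in control and 2 in *Eed-cKO*, none lower, with list medians of 1.65 and 1.12. *Uncx* was the one that passed in neither genotype, *Sim2* had no UMI in these cells, and *Otp* was not analysed here. None of the 4 differed between genotypes in this effect, a comparison in which 23 of all genes tested passed (0.183%).

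The peptides that magnocellular neurons release with vasopressin or oxytocin moved apart from one another. *Gal* reached 403, 1529, 888, 542, 449 and 470 CPM in control embryos 1 to 6, and 1049, 529, 1309, 793 and 733 CPM in the 5 *Eed-cKO* embryos. Every embryo was far above its other neurons, which averaged 61.2 ± 10.7 and 51.3 ± 4.09 CPM. The log2 difference of *Gal* was 3.39 (SE 0.267, adjusted p = 5.5e-09) in control and 3.78 (SE 0.323, adjusted p = 4.1e-08) in *Eed-cKO*, while with 10 cells asked it was 3.66 in control with adjusted p = 0.0934. *Pdyn*, the precursor of the opioid dynorphin, averaged 316 ± 104 and 405 ± 119 CPM against 45.3 ± 4.22 and 44.04 ± 3.09 CPM, and rose by 2.68 (adjusted p = 3.0e-35) and 2.87 (adjusted p = 1.1e-24).

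*Trh* and *Nts*, which encode thyrotropin-releasing hormone and neurotensin, were lower in both genotypes, as was *Adcyap1* in control. Of the 12 co-released peptide genes tested, 2 passed higher and 3 lower in control, and 2 higher and 2 lower in *Eed-cKO*. *Crh*, the releasing hormone of the stress axis, was carried by few embryos of the fit. It stood at 1201 CPM in control embryo 6, 247 CPM in control embryo 2 and 445 CPM in *Eed-cKO* embryo 5, and at most 92.3 CPM in the others. Outside the fit, the 1 peptide-high neuron of *Eed-cKO* embryo 9 held 15 *Crh* UMIs. The log2 differences of *Crh*, 3.89 and 5.65, did not pass (adjusted p = 0.0666 and 0.0606). Among 12 other hypothalamic peptides, *Ghrh* and *Npff* passed higher in both genotypes, and *Sst*, *Npy*, *Pnoc*, *Pomc* and *Pmch* passed lower in both.

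Among the genes that process and store peptide precursors, of 17 tested, 10 passed higher in control and 6 in *Eed-cKO*, none lower, with list medians of 0.63 and 0.46. *Pcsk1*, the prohormone convertase, was higher by 3.32 (SE 0.375, adjusted p = 1.6e-16) in control and by 3.09 (SE 0.580, adjusted p = 9.1e-06) in *Eed-cKO*. *Ptprn*, a protein of the dense core vesicle membrane, averaged 558 ± 129 and 667 ± 284 CPM, against 128 ± 12.2 and 142 ± 17.8 CPM in other neurons. *Pcsk1n*, *Pam*, *Scg5* and *Vgf* also passed in both genotypes. *Cpe*, the carboxypeptidase that trims precursors, showed 0.03 in control and −0.13 in *Eed-cKO* (adjusted p = 0.930 and 0.583), whereas *Pam*, which amidates peptide ends, rose by 1.40 and 1.68.

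The GABA genes *Slc32a1* and *Gad2* were lower in the peptide-high than in other neurons of both genotypes. *Slc32a1*, the vesicular GABA transporter, stood at 0, 30.1, 32.9, 14.7, 71.0 and 5.95 CPM in control embryos 1 to 6, and at 33.6 CPM in *Eed-cKO* embryo 4 and 0 in the other 4 *Eed-cKO* embryos. Every value was below the 78.6 to 133 CPM of other neurons. It fell by 2.21 (adjusted p = 3.8e-09) in control and by 3.15 (adjusted p = 1.1e-06) in *Eed-cKO*, and *Gad2*, which makes GABA, fell by 1.45 and 2.02. *Slc17a6*, the vesicular glutamate transporter, fell by 0.64 in control (adjusted p = 0.000246) and showed −0.13 in *Eed-cKO* (adjusted p = 0.743). Of 11 transmitter genes tested, 1 was higher and 6 were lower in control, and 1 was higher and 3 were lower in *Eed-cKO*. The higher one in *Eed-cKO* was *Th*, the rate-limiting enzyme of dopamine synthesis, at 2.29 (adjusted p = 0.00273), with UMIs in 3 of 5 embryos (126, 49.4 and 29.3 CPM) and 0.22 in control. The higher one in control was *Nos1*, at 1.27 (adjusted p = 0.00760), with 1.40 and adjusted p = 0.0660 in *Eed-cKO*.

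The ion channel list held 3 higher of 8 genes tested in control (*Kcnmb4*, *Kcnip1*, *Kcnip4*) and 2 in *Eed-cKO* (*Kcnmb4*, *Kcnip4*). *Kcnmb4*, an accessory subunit of the large-conductance potassium channel, rose by 2.05 in each genotype (adjusted p = 3.3e-15 and 1.3e-07). Of 7 receptor genes tested, *Avpr1a* (vasopressin receptor) and *Oprk1* (the dynorphin receptor) passed in control and *Oprk1* in *Eed-cKO*. Of 10 PRC2 subunit genes tested, none passed in either genotype, against 9.74% of all genes in control and 5.68% in *Eed-cKO*.

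Large rises in control were also seen for *Gsta4*, a glutathione transferase, at 4.84 (SE 0.368), *Fkbp11* at 4.66, *Fosl2*, a Fos-family transcription factor, at 4.61, and the peptide precursor *Npff* named above, at 4.59. *Angpt1* rose by 3.87, *Rasd1*, a Ras-related protein, by 3.78, and *Kcnh1*, a voltage-gated potassium channel, by 3.51. *Fosl2* averaged 213 ± 113 CPM in control and 204 ± 97.4 CPM in *Eed-cKO* peptide-high neurons, against 7.32 ± 2.02 and 21.1 ± 2.01 CPM in other neurons. *Gsta4* averaged 118 ± 21.5 and 89.9 ± 43.3 CPM against 4.19 ± 3.09 and 8.77 ± 4.82 CPM. In *Eed-cKO* the log2 differences were 3.13 for *Gsta4*, 2.93 for *Fosl2*, 2.86 for *Npff*, 3.74 for *Angpt1* and 2.37 for *Rasd1*, all past the threshold.

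Some genes of other hypothalamic neurons had no UMI in the control peptide-high cells. They included *St18*, *Lmx1a*, *Zmat4*, *Hcrt* (orexin) and *Sall3*, and measured against the limit of 3 UMIs over the group they were at least 7.19, 6.81, 5.94, 5.77 and 5.43-fold lower than in other neurons. *Sst*, which encodes somatostatin, gave 1 UMI in all control peptide-high neurons, in embryo 4, while other neurons averaged 199 ± 65.0 CPM.

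**Figure D3:**
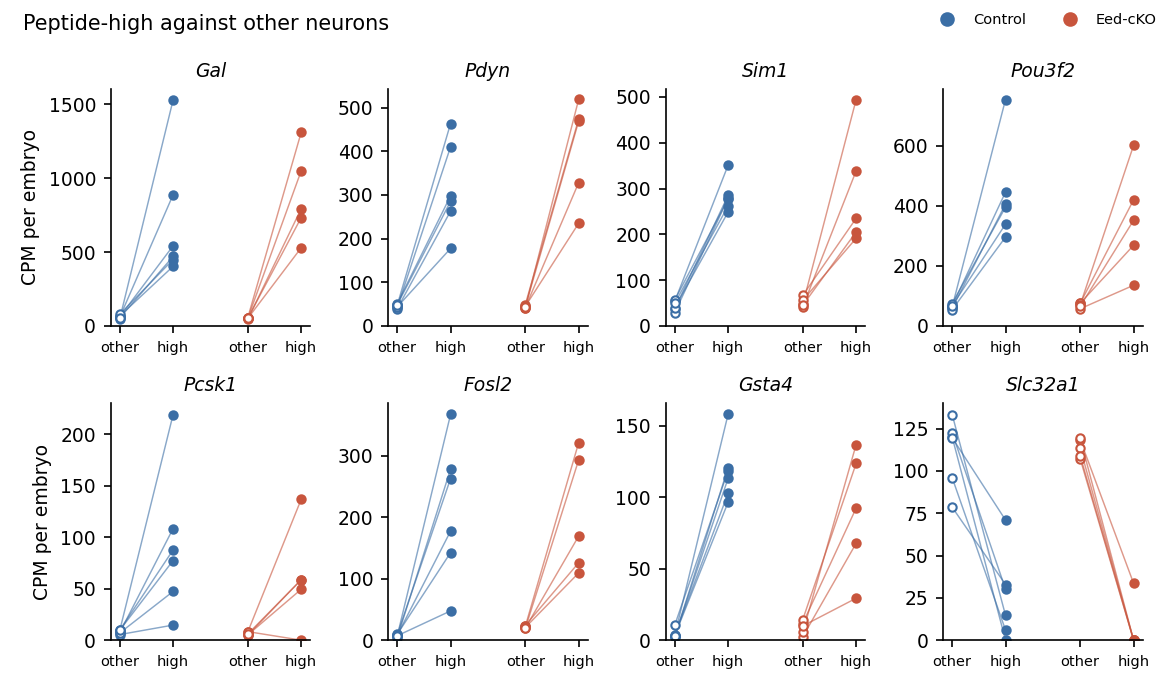
CPM per embryo (y axis, from 0) in other neurons (open points) and peptide-high neurons (filled points) for 8 genes, with a line joining the 2 values of an embryo, in 6 control and 5 *Eed-cKO* embryos. *Gal*, *Pdyn*, *Sim1*, *Pou3f2*, *Fosl2* and *Gsta4* are higher in the peptide-high neurons of every embryo, *Pcsk1* is at 0 in 1 *Eed-cKO* embryo, and *Slc32a1* is lower in every embryo.

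Markers of other cell types were summed next. Of 8 astrocyte markers, 4 had a UMI in control and 5 in *Eed-cKO*, with *Aqp4* and *Gfap* at 0 in both, and the summed level ran from 14.7 to 166 CPM in control and 0 to 87.9 CPM in *Eed-cKO*, against 143 to 250.5 and 261 to 441 CPM in other neurons. All 8 microglia markers were at 0 in control, and 1 UMI was found in *Eed-cKO*. Of 8 endothelial markers, 7 had a UMI in control, and their sum reached 497 CPM in 1 embryo against 90.2 CPM at most in other neurons. *Ly6c1* was the member of that list that passed higher in control, and its 14 UMIs all came from control embryo 5. Tanycyte markers summed to 77.3 to 213 CPM in control against 62.75 to 115 CPM in other neurons, and to 67.7 to 159 against 155 to 427.5 CPM in *Eed-cKO*. Oligodendrocyte lineage markers summed to 29.3 to 142 against 37.9 to 134 CPM in control and to 50.3 to 123.5 against 68.75 to 94.2 CPM in *Eed-cKO*. The ependymal, cycling, pericyte, leptomeningeal and pituitary lists stayed below the highest summed level of other neurons of the same genotype. Whether these markers bear on the differences above was not tested.

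The suprachiasmatic list held genes that moved in both directions. Of 11 tested, *Rora*, *Rorb*, *Prok2* and *Vipr2* were higher than in other neurons of control embryos and *Six3*, *Lhx1* and *Zfhx3* were lower. In *Eed-cKO*, *Grp* was higher and *Six6*, *Lhx1*, *Rorb*, *Zfhx3* and *C1ql3* were lower, and *Grp*, *Six6* and *Rorb* were the 3 that passed the test of the difference described further on. *Vip*, the defining peptide of the light-responsive pacemaker neurons, had no UMI in peptide-high neurons of either genotype. Of 11 clock genes, 1 (*Bhlhe41*) passed in control and none in *Eed-cKO*.

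Between genotypes, the genes of the peptide-high neurons themselves differed in few cases. With 10 cells asked, 4 of 8602 genes passed (0.0465%), in a comparison of 4 male control embryos with 1 female *Eed-cKO* embryo where sex and genotype cannot be told apart. They were *Xist* (9.49, X-linked and expressed in females) and *Sst* (7.17), which were higher (0.0233% of genes), and *Ddx3y* (−7.54, on the Y chromosome) and *Tbca* (−1.63), which were lower (0.0233%). With 3 asked, 31 of 9388 genes passed (0.33%), 12 higher (0.128%) and 19 lower (0.202%), in 2 female and 4 male control embryos against 3 female and 2 male *Eed-cKO* embryos, and the Y-linked *Eif2s3y* was among them. Scaling by library size alone gave 14 higher and 11 lower. *Sst* was the 1 gene called in both fits. DESeq2 called 3 genes, and limma-voom with a minimum log2 fold of 0.18 (TREAT) called 4, where edgeR called 31.

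*Gal* and *Nos1* did not pass in this comparison. *Gal* differed by 0.03 (SE 0.364, adjusted p = 0.999) and *Nos1* by 0.08 (SE 0.498, adjusted p = 0.992). No gene passed of the 4 lineage regulators, the 17 peptide processing genes, the 8 co-released peptides, the 7 transmitter genes or the 9 PRC2 subunit genes tested. Of all genes tested 0.33% passed, so the lack of a call in these lists is near that share and does not show equal levels. *Eed* itself held 15 UMIs in control peptide-high neurons and 5 in *Eed-cKO*, at 20.4 ± 13.5 and 20.9 ± 38.1 CPM, and in other neurons 30.7 ± 2.17 and 23.03 ± 4.19 CPM. A 3′ tag outside the deleted exons does not report the deletion.

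The orphan nuclear receptors *Rorb* and *Rora*, both expressed in the suprachiasmatic nucleus, were lower in *Eed-cKO*. *Rorb* (chr19:18930605-19111196) stood at 123, 48.2, 54.8, 147, 166 and 101 CPM in control embryos 1 to 6, and at 27.3 CPM in *Eed-cKO* embryo 6 and 0 in embryos 1, 4, 5 and 7. All control embryos were above all *Eed-cKO* embryos, which together held 1 *Rorb* UMI against 61 in control, and such separation was seen in 124 of all genes tested (1.32%, counted on CPM after TMM scaling). The log2 difference was −4.33 (SE 0.820, adjusted p = 0.000277), and in other neurons *Rorb* averaged 50.1 ± 9.09 and 40.6 ± 5.22 CPM. The SE of this *Rorb* difference understates counting error, since the *Eed-cKO* side held 1 UMI. *Rora* stood at 245, 96.3, 76.7, 191, 130 and 29.7 CPM in control embryos and at 33.8, 33.6, 0, 0 and 0 CPM in *Eed-cKO* embryos, with control embryo 6 among the *Eed-cKO* values. Its log2 difference was −2.63 (SE 0.589, adjusted p = 0.00696).

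The call for *Rorb* was lost with DESeq2 (adjusted p = 0.0768), with a threshold of 10 peptide UMIs (adjusted p = 0.0638) and in thinned cells (adjusted p = 0.388). *Six6*, a homeobox factor needed for the suprachiasmatic nucleus, stood at 123, 30.1, 10.96, 73.3, 130 and 0 CPM in control and at 8.39 CPM in *Eed-cKO* embryo 4 and 0 in the other 4. It was lower in *Eed-cKO* by 3.42 on the log2 scale without passing (adjusted p = 0.112). *Rorb* was found in 11.5% of cells with at least 100 peptide UMIs and in 24.1% of the rest, and *Six6* in 1.92% and 17.2%, over both genotypes. The share of cells under 100 UMIs was larger in *Eed-cKO*, and its part in these differences was not tested.

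Other genes with no overlap between genotypes were lower in *Eed-cKO* as well. *Chodl* stood at 29.7 to 210 CPM in control and at 8.39 CPM in *Eed-cKO* embryo 4 and 0 elsewhere (log2 difference −4.02, adjusted p = 0.00540). *Cacng5*, a transmembrane AMPA receptor regulatory protein, averaged 93.2 ± 35.1 against 12.1 ± 13.2 CPM (−2.84, adjusted p = 0.0235), *Sobp* 95.2 ± 19.5 against 14.2 ± 13.7 CPM (−2.66, adjusted p = 0.0168) and *Lrrc75b* 114 ± 15.7 against 28.5 ± 21.1 CPM (−2.10, adjusted p = 0.0397). *Cacng5*, *Sobp* and *Lrrc75b* each lost the call without *Eed-cKO* embryo 1 or 4, with adjusted p from 0.0517 to 0.245, and without some other embryos. *Stxbp6*, a SNARE-binding protein, differed by −2.06 (adjusted p = 0.000729) and was separate only after TMM scaling, since before it control embryo 5 stood at 106 CPM and *Eed-cKO* embryo 6 at 109 CPM.

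Several genes that passed had means in the same order in other neurons, where the genotypes were not tested. *Hddc3* was at 11.8 CPM or below in every control embryo and at 54.7 to 135 CPM in *Eed-cKO* (log2 difference 4.38, adjusted p = 2.9e-05), and other neurons averaged 15.3 ± 2.56 and 105 ± 5.53 CPM. The ribosomal protein genes *Rps13* (703 ± 102 against 248 ± 58.0 CPM) and *Rps15a* (569 ± 84.6 against 289 ± 46.9 CPM) were lower in peptide-high neurons, and other neurons stood at 532 ± 44.9 against 247 ± 19.2 CPM and 431.5 ± 31.9 against 267 ± 21.8 CPM. *Igf2bp3*, an RNA-binding protein, averaged 13.2 ± 13.2 against 106 ± 48.6 CPM, and 11.03 ± 3.36 against 36.45 ± 4.67 CPM in other neurons. *Pisd-ps3*, a pseudogene whose counts may share reads with its parent gene, averaged 101 ± 51.1 against 299.8 ± 64.9 CPM, and 122 ± 49.4 against 259.6 ± 37.7 CPM in other neurons.

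*Tfap2b*, an AP-2 transcription factor, had 0 UMIs in control peptide-high neurons and 13 in the *Eed-cKO* embryos of the fit, in embryo 4 (83.9 CPM) and embryo 5 (74.1 CPM) and at 0 in the other 3. Over all *Eed-cKO* peptide-high neurons, which held 14 UMIs, it was at least 10.3-fold higher (limit of 3 UMIs over the control group), and other neurons averaged 6.06 ± 3.82 and 86.8 ± 18.4 CPM. It was the 1 gene to pass of 3 tested from the genes that the study named as derepressed, a list chosen on these samples and therefore not independent evidence. *Sst* gave 30 UMIs in *Eed-cKO* against 1 in control, all from embryo 4 (143 CPM) and embryo 7 (381 CPM), with 0 in embryos 1, 5 and 6. Its log2 difference was 5.02 (SE 0.808, adjusted p = 2.6e-06), and with sex as a term the call was lost (3.52, adjusted p = 0.0781). With 1 *Sst* UMI in control, the SE here understates counting error too.

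**Figure D4:**
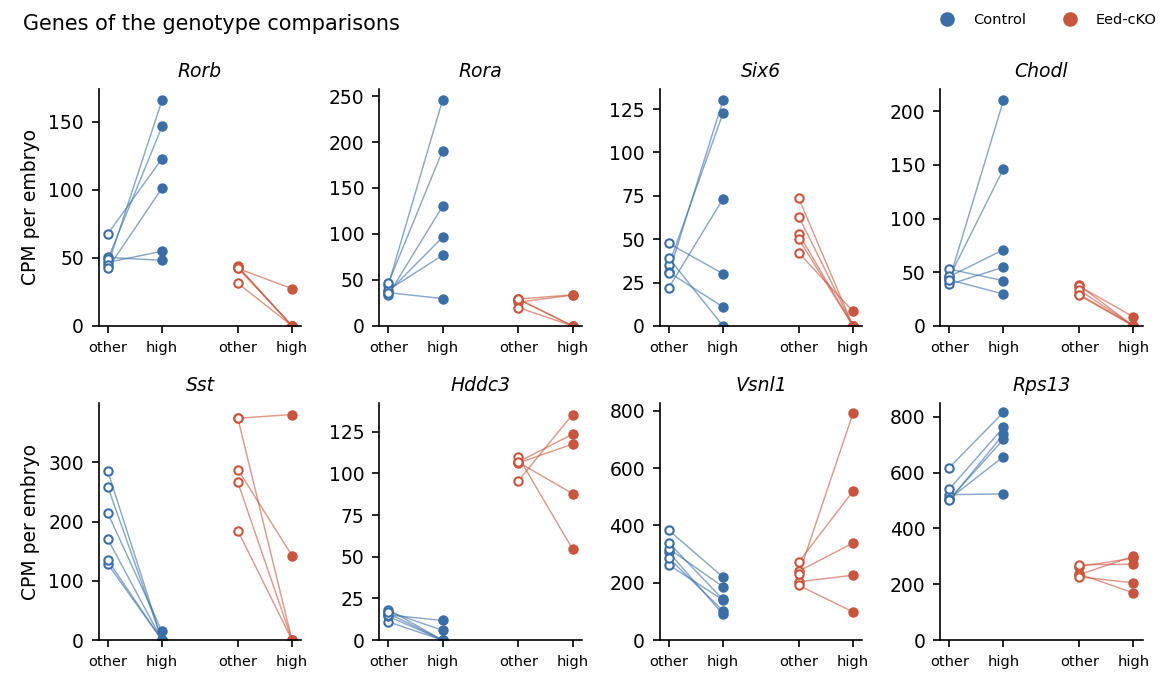
CPM per embryo (y axis, from 0) in other neurons (open points) and peptide-high neurons (filled points) for 8 genes named in the genotype comparisons, with a line joining the 2 values of an embryo, in 6 control and 5 *Eed-cKO* embryos. *Rorb*, *Rora*, *Six6* and *Chodl* are at or near 0 in the peptide-high neurons of most *Eed-cKO* embryos, *Sst* is present in 2 of them, and *Hddc3* and *Rps13* differ between genotypes in other neurons too.

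Whether the contrast with other neurons itself changed between genotypes was tested as an interaction. Of 12595 genes, 23 passed (0.183%), 6 higher (0.0476%) and 17 lower (0.135%) in *Eed-cKO*, and 9 higher and 10 lower with library size alone. With 10 cells asked, 10 passed (0.0802%). DESeq2 and edgeR on thinned cells called 0, with 445 and 577 genes at an unadjusted p under 0.05, against 891 in edgeR. *Rorb* was 0.91 higher than in other neurons of control (adjusted p = 0.0150) and 3.61 lower in *Eed-cKO*, and this difference passed (−4.52, SE 0.971, adjusted p = 0.00452). Without *Eed-cKO* embryo 4 it was −3.70 with adjusted p = 0.177. *Six6* did likewise (−4.32, SE 1.05, adjusted p = 0.0275), with 0.36 in control and −3.96 in *Eed-cKO*, and lost the call without control embryo 1, 4 or 5 or without *Eed-cKO* embryo 1, 5, 6 or 7.

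*Vsnl1*, a neuronal calcium sensor, was lower than in other neurons of control embryos by 1.22 and showed 0.42 in *Eed-cKO* (difference 1.65, SE 0.268, adjusted p = 4.9e-06). In peptide-high neurons it stood at 140, 90.3, 186, 102.6, 142 and 220 CPM in control and at 338, 227, 98.8, 519 and 791 CPM in *Eed-cKO*, where embryo 5 lay within the control range. *Nr2f1*, an orphan nuclear receptor (COUP-TF1), was level between genotypes in peptide-high neurons, at 264 ± 104 and 261 ± 73.7 CPM, while other neurons went from 302 ± 82.8 to 113 ± 21.9 CPM, and the difference was 1.35 (SE 0.275, adjusted p = 0.00168). *Grp*, gastrin-releasing peptide, passed at 2.99 (SE 0.735, adjusted p = 0.0314) and was 1.21 without *Eed-cKO* embryo 4 (adjusted p = 0.877), and the call was also lost without control embryo 2, 3, 4 or 5.

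Cells were also classed by transmitter genes, with at least 1 UMI counting as detected. In control, 63.2% of peptide-high neurons held *Slc17a6* without *Slc32a1*, 10.5% (8 of 76) held *Slc32a1* without *Slc17a6* and 1.32% held both. In *Eed-cKO* these shares were 85.3%, 0% (0 of 34, which allows up to 8.82%) and 5.88%. In other neurons they were 43.4%, 23.9% and 5.29% in control and 41.0%, 12.0% and 21.3% in *Eed-cKO*. *Slc17a6* CPM was lower in control peptide-high than in other neurons although the share of cells was higher, so no order is read from that share.

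Over embryos with at least 3 peptide-high neurons, *Slc17a6* alone averaged 64.3% ± 16.6 in control and 92.7% ± 16.3 in *Eed-cKO* (n = 6 and 5). *Slc32a1* alone averaged 9.66% ± 5.64 and 0%, and *Gal* 62.4% ± 21.9 and 91.2% ± 12.6. The exact permutation p values were 0.0216, 0.0260 and 0.0216, and 0.0606 for each after adjustment over 7 shares, so none passed. With 10 cells asked, 4 embryos against 1 cannot go below p = 0.4 in a two-sided exact test.

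Cells with both transporters were frequent among other *Eed-cKO* neurons and rare among the peptide-high ones. Over the 5 *Eed-cKO* embryos, 3.64% ± 8.13 of peptide-high neurons and 22.4% ± 5.62 of other neurons held both, lower in 5 of 5 embryos (exact paired permutation p = 0.0625, the smallest possible), and over all 8 *Eed-cKO* embryos with a peptide-high neuron the means were 2.27% and 21.8% (lower in 8 of 8, p = 0.00781, adjusted 0.0273). *Eed-cKO* embryos 3, 8 and 9 held 1 peptide-high neuron each. The share of a single cell is all or none, so the p value over 8 embryos does not allow for counting error. In control the means were 1.19% and 4.98%. This test, like that of the *Hox* genes below, was added after the data were seen.

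*Hox* genes, the homeobox genes that pattern the posterior body axis and are silent in normal forebrain, were found in 8 of 34 *Eed-cKO* peptide-high neurons (23.5%) and in 2453 of 5190 other *Eed-cKO* neurons (47.3%). The *Eed-cKO* share went with the peptide count, at 7.69% of the 13 cells with at least 100 peptide UMIs and 33.3% of the 21 others. In control they were found in 1 of 76, a doublet candidate, and in 0.0859%. Of the 429 non-neural reference cells of *Eed-cKO*, 15.6% held a *Hox* UMI, at a median depth of 3646 UMIs, against 0.395% of 253 in control. How much of the *Eed-cKO* share in peptide-high neurons came from free RNA was not tested. The 34 *Hox* genes of the table gave 25 UMIs from 11 genes in *Eed-cKO* peptide-high neurons, too few for any of them to enter the fit, and 14140 UMIs from all 34 in other *Eed-cKO* neurons. By embryo, the share of cells with a *Hox* gene averaged 17.4% ± 19.05 and 47.01% ± 9.52 over the 5 embryos (lower in 5 of 5, exact paired permutation p = 0.0625), and 23.4% ± 35.03 and 48.8% ± 10.2 over all 8 (lower in 7 of 8, p = 0.0859, adjusted 0.109). In *Eed-cKO* embryo 4, which held the most peptide-high neurons of its genotype, the shares were close, at 45.5% (5 of 11) and 51.0%.

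The summed *Hox* level of peptide-high neurons in the 8 *Eed-cKO* embryos that had any (1, 3, 4, 5, 6, 7, 8 and 9) was 0, 0, 185, 24.7, 27.3, 0, 105 and 0 CPM. Their other neurons stood at 394, 465.7, 477, 567, 430, 498, 584 and 583 CPM. Every peptide-high value was below every other value, and 22 of the 25 UMIs came from *Eed-cKO* embryo 4. Embryos 3, 8 and 9 rested on 1 peptide-high neuron each, so p values over 8 embryos, here and below, do not allow for counting error. The means were 42.7 ± 67.5 and 499.7 ± 72.2 CPM (exact paired permutation, two-sided, p = 0.00781, the smallest possible with 8 embryos, 0.00977 adjusted over 5 classes of neurons). Over the 5 embryos with at least 3 peptide-high neurons they were 47.3 ± 77.8 and 473 ± 66.3 CPM (p = 0.0625, the smallest possible).

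The same comparison was made with classes of other neurons nearer to the peptide-high ones. Summed *Hox* CPM was 321 ± 59.4 in other neurons with *Sim1*, 312 ± 94.8 in those with both *Sim1* and *Pou3f2*, 433 ± 86.2 in those with *Gal* and 264 ± 91.2 in those with *Slc17a6* alone. The peptide-high value was lower in 8 of 8 embryos for the first 3 classes (p = 0.00781, the smallest possible) and in 7 of 8 for the last (p = 0.0156). These classes held a *Hox* UMI in 36.1%, 40.5%, 57.2% and 32.7% of cells at median depths of 5696, 6708, 6872 and 5291 UMIs, below the depth of the peptide-high neurons. Of the *Eed-cKO* peptide-high neurons under 100 peptide UMIs, 33.3% held a *Hox* UMI, close to the last class. Without doublet candidates the means against all other neurons were 55.7 ± 86.5 and 488 ± 68.9 CPM, lower in 7 of 7 embryos.

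**Figure D5:**
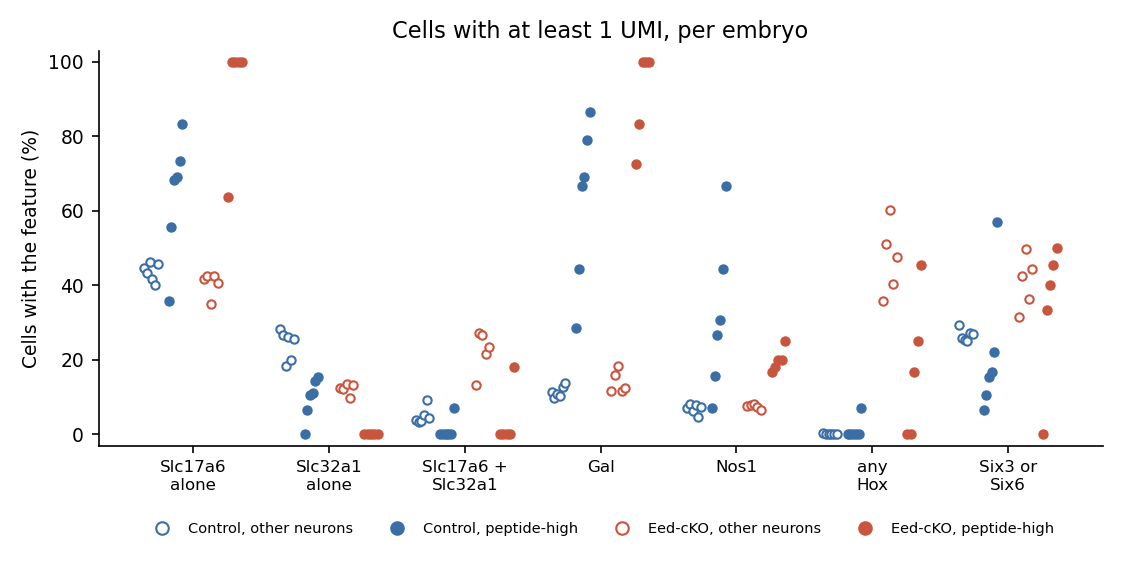
Percentage of cells with at least 1 UMI of each gene or combination (y axis) in other neurons (open points) and peptide-high neurons (filled points), with 1 point per embryo with at least 3 peptide-high neurons, for 6 control and 5 *Eed-cKO* embryos. *Gal* is higher in the peptide-high neurons of every embryo, and *Hox* genes and the pair *Slc17a6* with *Slc32a1* are lower in those of every *Eed-cKO* embryo. Open points keep embryo order and filled points are sorted.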

How the data were processed

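Single cells of E18.5 hypothalamus from 15 embryos were analysed as UMI counts. The authors deposited these counts as 1 table of genes by cells, made with the SureCell RNA pipeline (STAR 2.5.2b, SAMtools 1.3, mm10), after removing shallow cells and before removing non-neural ones. Groups, embryo, sex and litter came from the labels, and libraries of an embryo were summed. The peptide-high neurons, gene lists and several tests were chosen with earlier results of these data known. Gene tests used R 4.3.3 with edgeR 4.0.16 (TMM scaling, quasi-likelihood, Benjamini-Hochberg adjusted p under 0.05) on counts summed per embryo. Genotypes were compared on peptide-high sums, and peptide-high with other neurons with the embryo as a block. Genes of the rule were left out, and genes needed 9 UMIs over embryos, 2 in 1 embryo and a median log2 CPM of at least 0.45. Shares were compared by exact permutation tests over embryos (Python 3.11.15). Alternatives used DESeq2 1.42.0, limma 3.58.1 (voom with TREAT) and Scrublet scores (scanpy 1.11.5; 6% of cells per library called doublet candidates, kept otherwise). Genes were named by list membership past the threshold and by largest changes without overlap between groups. On simulated counts, 8-fold changes were recovered for 100% of the changed genes with 3 cells asked and 56% with 10 in the genotype fit. The changed genes were drawn from well-covered genes, and the simulated spread did not grow with fewer cells. These shares therefore do not hold for genes with few UMIs. Exact binomial intervals and limits from 3 counts cover counting error only, *Otp* was not analysed here, and 1 gene past a threshold is not reported here.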

Additional observations from a re-analysis of the deposited data

Results flagged for a closer look

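Among 50 groups of 4 to 6 embryos, 9 had 1 embryo far from the rest, where chance gives about 1 in 20. Among control embryos, *Six3* or *Six6* was found in 57.1% of the peptide-high neurons of 1 embryo, any *Hox* gene in 7.14% of those of 1 embryo against 0 in the rest, and both *Slc17a6* and *Slc32a1* likewise in 7.14%. The *Hox* value and the value for both transporters rest on the same cell of control embryo 5, a doublet candidate from the largest control library. Control embryos also had 1 high value of *Nos1* (228 CPM in embryo 1) and 1 of *Sst* (14.7 CPM in embryo 4, from 1 UMI). Among *Eed-cKO* embryos, embryo 4 held *Slc17a6* alone in 63.6% of its peptide-high neurons against 100% in the other embryos of the fit, both transporters in 18.2% against 0, and *Chodl* at 8.39 CPM against 0. *Rorb* was at 27.3 CPM in *Eed-cKO* embryo 6 and at 0 in the other embryos of the fit.

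The contrast of peptide-high with other neurons differed between genotypes by the interaction test of edgeR for the genes that follow, given as the log2 contrast in *Eed-cKO* minus that in control. With 3 cells asked it was 10.96 for *Gbx2* (0 UMIs in control and 3 in *Eed-cKO* peptide-high neurons, so its size depends on the fit), 5.43 for *Sst*, 2.99 for *Grp*, 1.65 for *Vsnl1* and 1.35 for *Nr2f1*, and −4.52 for *Rorb*, −4.32 for *Six6*, −3.37 for *Gem*, −3.35 for *Cacng5* and −2.59 for *Sobp*. *Gem*, a small GTPase that is activity-induced, was higher than in other neurons of control by 2.49 and showed −0.89 in *Eed-cKO*. With 10 cells asked, where 1 *Eed-cKO* embryo remained and the spread came from the control embryos, it was 11.19 for *Sst*, 4.99 for *Meis2*, 4.29 for *Grp*, 3.30 for *Ecel1* and 2.83 for *Zic4*, and −1.57 for *Tbca*.

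Outside the neurons, 6 cells held at least 3 *Avp* and *Oxt* UMIs, against 0 of 682 non-neural reference cells.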

How the results depend on the processing

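The lower share of peptide-high neurons in *Eed-cKO* embryos kept its direction under every alternative run and its call in 25 of 28, with differences of −0.876 to −0.628 points when 1 embryo was left out. It was −0.729 at 2 UMIs, −0.181 in females and −0.107 for *Oxt* alone, without passing. Shares of cells with a gene were unstable. With 10 cells asked, *Slc17a6* alone ranged from −6.69 to 5.85, *Gal* from −5.55 to 13.8 and *Nos1* from −6.23 to 1.65 points (0.281 without control embryo 6) when 1 embryo was left out, and with 3 asked both transporters reached −2.08 thinned (−1.19 to 3.64 with 1 left out) and *Six3* or *Six6* −10.8 thinned.

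The 4 genes called between genotypes became 31 with 3 cells asked, 8 with filterByExpr, 13 with no filter, 1 with DESeq2, 1 with limma-voom and a minimum log2 fold of 0.18 (TREAT), 11 without the largest control library and 5 to 11 with 1 embryo left out (9 without control embryo 3, 11 without control embryo 5). The 31 became 3 with filterByExpr, 3 with DESeq2, 4 with limma-voom and TREAT, 14 at 10 UMIs, 4 thinned, 20 without doublet candidates, 20 with each library as a sample, and 18 to 28 with 1 embryo left out (18 without control embryo 2, and 20 without control embryo 3, *Eed-cKO* embryo 1 or *Eed-cKO* embryo 4). The genotype differences of *Gal* and *Nos1* had no stable sign. *Gal* went from −0.68 to 0.0259 with 3 asked, and then to −0.0360 at 5 UMIs, −0.36 at 10, −0.37 thinned, −0.0016 without the largest library, −0.62 by library and −0.18 to 0.48 with 1 embryo left out. *Nos1* went from −0.64 to 0.0798, to 0.0952 without doublet candidates, and with 3 asked to −0.47 with sex as a term and −0.56 to 0.63 with 1 embryo left out.

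Calls against other neurons in control went from 905 to 523 with DESeq2, 201 thinned, 592 without doublet candidates and 520 to 915 with 1 embryo left out (520 without control embryo 2, 591 without control embryo 6), and with 3 asked from 1227 to 782 with DESeq2 and 551 thinned. In *Eed-cKO* they went from 181 to 716 with 3 asked, 53 with DESeq2 and 91 without doublet candidates, and from 716 to 318 with DESeq2, 427 at 10 UMIs and 346 thinned. The interaction counts went from 10 to 23 with 3 asked, 1 with DESeq2 and 3 to 11 with 1 embryo left out (3 without control embryo 3, 6 without control embryo 6), and from 23 to 0 with DESeq2, 10 at 10 UMIs, 0 thinned, 12 without doublet candidates and 14 to 28 with 1 embryo left out (14 without *Eed-cKO* embryo 1). Thinning turned *Mdfic* to −3.86, *H2-DMb1* to −2.70 (−4.00 to 4.43 with 1 embryo left out, lowest without *Eed-cKO* embryo 4) and *Nr2f1* to −0.0176. Taking every embryo with a peptide-high neuron brought both transporters (−19.6 points) and the summed *Hox* level (−457 CPM) past the threshold, and not the share of cells with a *Hox* gene (−25.4 points). The embryos so added, *Eed-cKO* embryos 3, 8 and 9, held 1 such cell each. Causes were not tested beyond fewer cells or samples where these were taken out.

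No paired analysis was possible because no litter held both genotypes and replicate numbers only name libraries. Fits asking for 20 cells, fits of 10 cells by library or with sex as a term, comparisons with *Eed-cKO* cells of 10 cells without *Eed-cKO* embryo 4, thinned or at 10 UMIs, and the comparisons of *Avp*-led with *Oxt*-led and of glutamatergic with GABAergic cells could not be fitted, since too few cells or embryos remained. With 34 *Eed-cKO* cells, a gene at 0 is compatible with up to 10.4 CPM, and most genes called between genotypes rest on under 100 UMIs.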
